A study of Mus musculus with 9 samples.

Results

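Keratins of stratified epithelia and hair were compared between Merkel cells and basal keratinocytes of newborn mouse epidermis. The set holds every protein-coding gene in the expression table whose symbol is Krt followed by a number and at most 1 letter, apart from Krt7, Krt8, Krt18, Krt19 and Krt20, which belong to simple epithelia. Keratin-associated protein genes were left out. The names alone decided membership, and 48 of the 49672 rows met the rule. Of these genes, 25 lie on chromosome 11 (mm10), where the type I keratins are clustered, and 23 lie on chromosome 15, where the type II keratins are clustered.

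All cells were sorted by flow cytometry out of skin epidermis at postnatal day 0, and all mice carried the Sox2-GFP reporter. Merkel cells, the touch receptor cells of the skin, are the GFP-positive cells (3 libraries). Basal keratinocytes, the proliferative cells on the basement membrane, are GFP-negative cells that stained for both SCA1 and CD49F (6 libraries). Each of 3 sample numbers has 1 Merkel library and a second and a first basal library. The labels give neither the difference between a second and a first library nor whether a number stands for an animal, a litter or a pool, so the p-values measure only the spread between numbers, which may be technical. The sort rests on a reporter for Sox2, a gene also transcribed in dermal papilla cells of some hair follicles.

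Keratin filaments assemble from pairs of a type I and a type II keratin, and which pair a cell makes marks its place in an epithelium. Krt5 and Krt14 form the filaments of the basal layer, Krt1 and Krt10 those of the layers above it, and Krt4 and Krt13 those of the oral and oesophageal lining, while hair follicles add further pairs for the outer root sheath, the companion layer, the inner root sheath and the hair shaft. Merkel cells arise from the epidermal lineage and are recognised by the simple keratins Krt8, Krt18 and Krt20 rather than by members of this set.

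Values are in TPM, a unit with an equal sum in all libraries and set per transcript length, which can be compared between genes. Read depth is unknown, so no counting interval is given. From 13012 to 13575 genes reached 1 TPM in Merkel libraries, against 13043 to 13649 in basal libraries. EGFP, the reporter, stood at 178 to 247 TPM in Merkel libraries, 13.4 to 18.3 TPM in second and 1.73 to 3.72 TPM in first basal libraries. The 9 listed Merkel cell markers summed to 872 to 1161 TPM in Merkel libraries, against 2.37 to 5.96 TPM in basal libraries. They include Sox2, whose reporter defined the sort, and 6 of the 9, Atoh1, Insm1, Isl1, Krt20, Pou4f3 and Sox2, were under 1 TPM in all basal libraries and were tested only through their Merkel levels. Of 7 basal keratinocyte markers, 5 were called lower. They include 3 keratins of the set, and Krt14 and Krt5 are 2 of the 5, and Itga6, another of them, encodes the CD49F of the sort. Markers of other cells also moved: 5 of 6 tested fibroblast and dermal papilla markers (175 to 269 TPM summed in Merkel libraries, 102 to 253 TPM in second and 36.1 to 103 TPM in first basal libraries) and 5 of 5 melanocyte markers (145 to 203 TPM in Merkel, 99.3 to 143 TPM in second and 13.7 to 31.1 TPM in first basal libraries) were called higher in Merkel cells. Most of the fibroblast and dermal papilla sum was Dcn, the tested marker that was not called. Dcn had 93.5 to 170 TPM in Merkel, 94.2 to 242 TPM in second and 33.1 to 98.7 TPM in first basal libraries. Of the called markers, Col1a2 averaged 38.3 TPM in Merkel cells, against 5.12 TPM in basal keratinocytes, and Col3a1 29.9 TPM, against 0.965 TPM. Of the fibroblast and dermal papilla calls, 3, Col1a1, Corin and Pdgfra, were under 1 TPM in all basal libraries and were tested only through their Merkel levels. Of 3 tested immune markers, 1, Ptprc, was called lower (26.8 to 123 TPM in Merkel, 26.4 to 225 TPM in second and 368 to 916 TPM in first basal libraries, summed over the immune list). Their part in the keratin results was not tested.

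A gene is called higher or lower here when its adjusted p from limma is under 0.05 and its log2 fold change, on the log2(TPM + 1) scale, is at least 1 in size. The 2 basal libraries of each sample number were averaged first, giving 3 values against 3. Of the 48 keratins, 27 had 1 TPM or more in at least 3 of these 6 values and were tested. Merkel cells had higher levels of 4 of them, Krt13, Krt4, Krt6a and Krt79, and lower levels of 2, Krt14 and Krt5, and 21 were not called. That is 14.8% of the tested keratins called higher and 7.41% called lower, against 6.79% and 5.27% of all 13822 tested genes (12.1% called in either direction). The log2 fold change was above 0 in 20 of the 27 keratins and in 35.8% of all tested genes, with a median of 0.50 among the keratins and -0.15 among all genes. Across the alternative analyses that kept the 27 keratins, between 18 and 23 of them lay above 0. With median-ratio scaling, in place of TPM as deposited, the median over all genes moved to 0.01, 23 keratins lay above 0, and 70.1% of all calls were higher, against 56.3% without it. All 6 keratin calls held in all 16 alternatives.

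An adjusted p under 0.05, without the limit on size, was reached by 12 of the 27 keratins and by 41.7% of all tested genes. An unadjusted p is never above its adjusted p, so at least 41.7% of all tested genes had an unadjusted p under 0.05. With sample number as a block, which pairs the libraries of a number, an adjusted p under 0.05 was reached by 18 of the 27 keratins and by 50.9% of all tested genes. The 6 added were Krt12, Krt23, Krt24, Krt28, Krt73 and Krt77, all with higher levels in Merkel cells and none past the size needed for a call. All Merkel libraries lay above all basal libraries for 5 keratins, Krt13, Krt4, Krt6a, Krt79 and Krt42, which held for 11.7% of all tested genes. Krt42 was under 1 TPM in all basal libraries and was tested only through its Merkel levels, so its separation followed from the filter. Genes tested in that way, such as Atoh1, are also part of the 11.7%. All Merkel libraries lay below all basal libraries for 2 keratins, Krt14 and Krt5, which held for 26.2%.

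**Figure D1:**
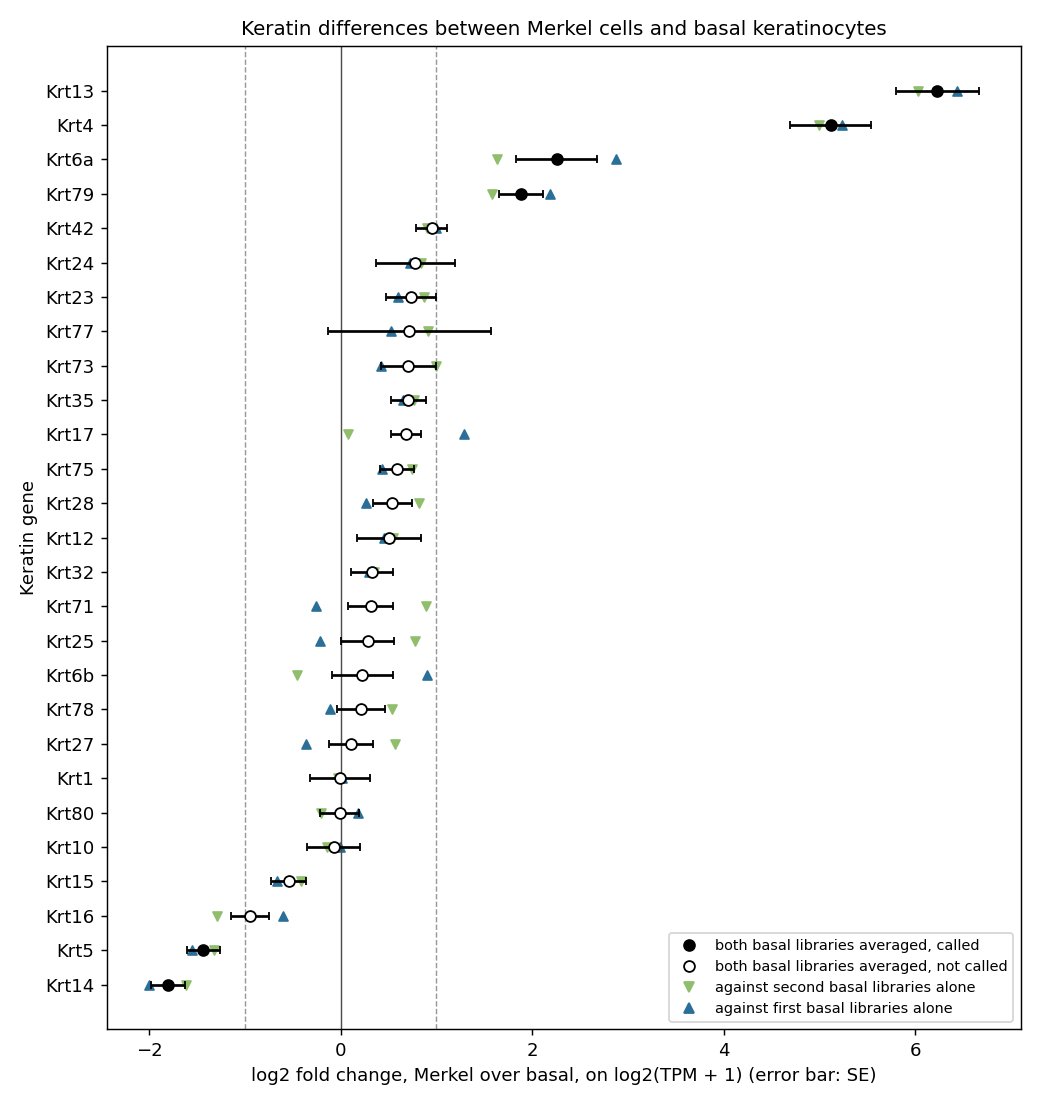
Log2 fold changes on the log2(TPM + 1) scale of the 27 tested keratins in Merkel cells against basal keratinocytes, ordered by size, with filled circles for called and open circles for uncalled genes, error bars for the SE, dashed lines at the size needed for a call, and triangles for the values against second or first basal libraries alone. Krt13 at 6.23 and Krt4 at 5.12 lie far above the rest, and Krt14 at -1.81 and Krt5 at -1.43 are the lowest.

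The remaining 21 keratins were low in every library, from 0 to 1.88 TPM, and 15 of them stayed under 1 TPM throughout. None was at 0 in all libraries. They comprise 13 of the 15 hair shaft keratins, 2 of the 7 inner root sheath keratins, 2 of the 5 suprabasal keratins, 1 of the 6 mucosal and corneal keratins and 3 of the 7 keratins outside these groups.

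The basal layer pair Krt14 and Krt5, the most abundant keratins in basal keratinocytes, was lower in Merkel cells. Of the 3, 2 were called lower and 0 higher, and the median log2 fold change was -1.43. Krt14 (ENSMUSG00000045545), the type I partner of the basal layer pair, lies at chr11:100203162-100207548 on the minus strand. Its level was 2131, 2106 and 2324 TPM in Merkel replicates 1 to 3, 6278, 7137 and 6627 TPM in second and 8618, 8341 and 9384 TPM in first basal libraries. Every Merkel library lay under every basal library, and every second library lay under every first library. Krt14 averaged 2187 ± 119 TPM in Merkel cells, against 7731 ± 279 TPM in basal keratinocytes (SD, n = 3 each), a log2 fold change of -1.81 ± 0.18 (SE; limma adjusted p = 8.4e-05). In such bulk samples, fewer cells of a type and less RNA per cell cannot be told apart.

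Krt5 (ENSMUSG00000061527; chr15:101707070-101712898, minus strand) is the type II partner of Krt14. Merkel replicates had 2304, 2124 and 2361 TPM, second basal libraries 5447, 6193 and 5314 TPM, and first basal libraries 6475, 6580 and 6769 TPM. The kinds of library fell in the same order as for Krt14, with no overlap between Merkel and basal or between second and first libraries. The means were 2263 ± 124 TPM in Merkel cells, against 6130 ± 226 TPM in basal keratinocytes, a log2 fold change of -1.43 ± 0.17 (limma adjusted p = 0.00029). The ratio of Krt5 to Krt14 TPM was 1.009 to 1.08 in Merkel libraries, against 0.721 to 0.868 in basal libraries, without overlap. No test was run on such ratios.

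Krt15, a type I keratin of basal cells and of the hair follicle bulge, had the smallest difference of the group. Merkel replicates had 1525, 1439 and 1821 TPM, second basal libraries 2019, 2619 and 1804 TPM, and first basal libraries 2497, 2833 and 2272 TPM. Merkel replicate 3 overlapped the lowest basal library. The log2 fold change was -0.54 ± 0.18 (limma adjusted p = 0.041), under the size needed for a call. Relative to Krt14, Krt15 stood at 0.683 to 0.783 in Merkel libraries, against 0.242 to 0.367 in basal libraries.

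**Figure D2:**
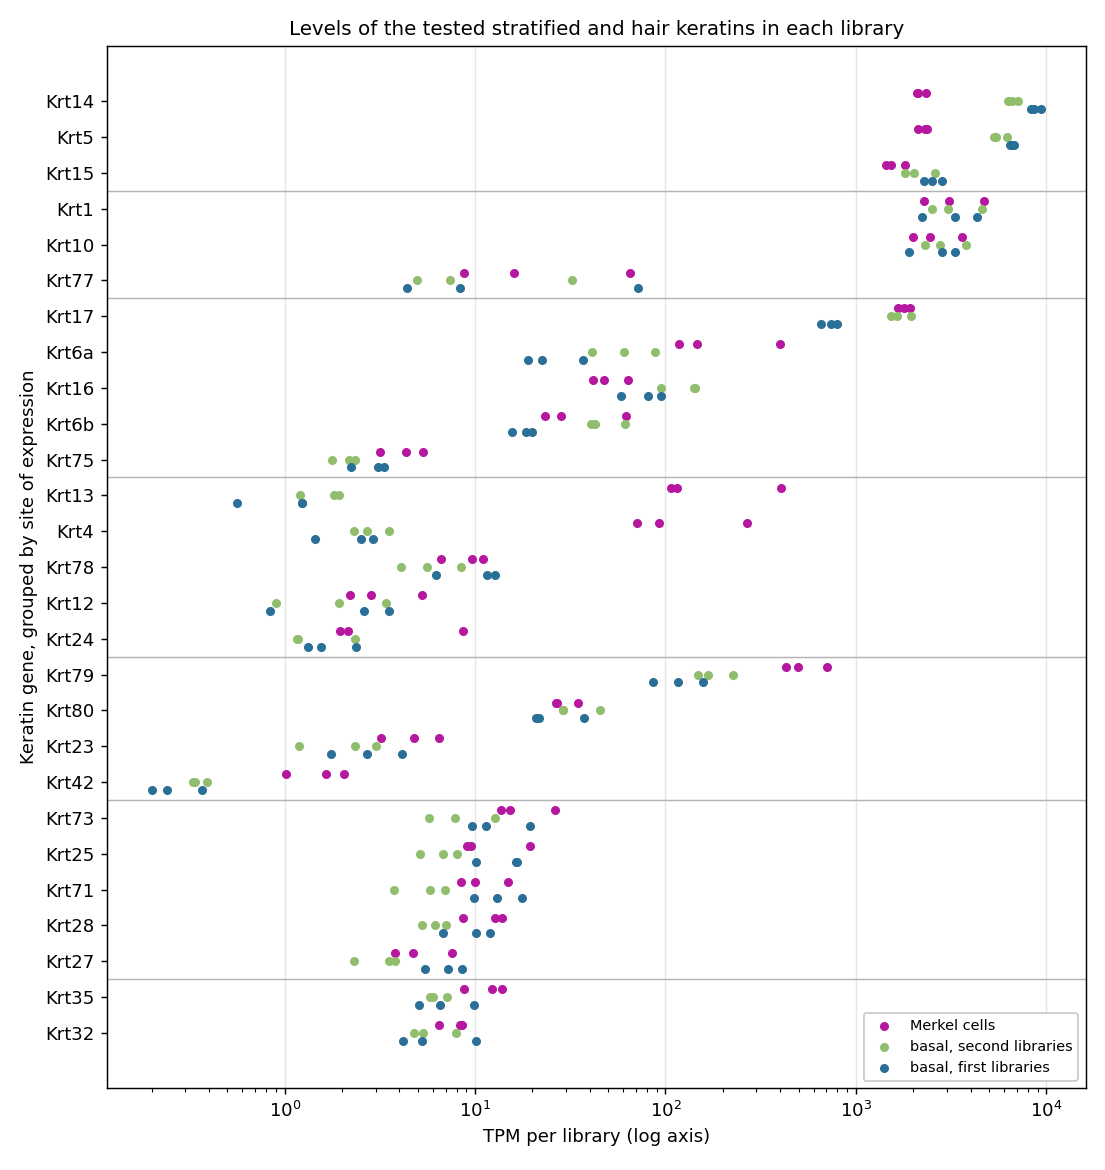
TPM of the 27 tested keratins on a log axis in each of the 9 libraries, grouped by role, with 1 point per library coloured by kind (Merkel, basal second, basal first). Merkel points of Krt14 and Krt5 sit under all basal points, those of Krt13, Krt4, Krt6a, Krt79 and Krt42 above them, and those of Krt1 and Krt10 among them.

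Suprabasal keratins overlapped between Merkel and basal libraries, and 0 of the 3 tested were called. At an unadjusted p under 0.05 the count was also 0, and with sample number as a block it was 1, Krt77. Krt1, the type II keratin of the spinous layer, had 3099, 4695 and 2284 TPM in Merkel replicates 1 to 3, 3034, 4618 and 2521 TPM in second and 3325, 4312 and 2237 TPM in first basal libraries. The 3 kinds of library overlapped fully, and in each kind number 2 was the highest and number 3 the lowest. The log2 fold change was -0.01 ± 0.32 (limma adjusted p = 0.99). Its partner Krt10 had 2455, 3629 and 1996 TPM in Merkel, 2762, 3780 and 2300 TPM in second and 2847, 3304 and 1901 TPM in first basal libraries, in the same order of numbers, with a log2 fold change of -0.07 ± 0.28 (limma adjusted p = 0.86). An antisense transcript, Gm11940, overlaps Krt10 and stood at 2.503 TPM in Merkel cells, against 6.02 TPM in basal keratinocytes, and the strand setting of the quantification is not given in the sources used here. Krt77, a type II keratin of suprabasal cells and sweat ducts, averaged 29.9 ± 30.5 TPM in Merkel cells, against 21.5 ± 26.5 TPM in basal keratinocytes, with 64.8 TPM in Merkel replicate 2, 32.2 TPM in the second and 72.0 TPM in the first basal library of number 2, and at most 16.1 TPM elsewhere. Its log2 fold change of 0.72 ± 0.85 had a limma adjusted p of 0.54, which was 0.00079 with sample number as a block. Krt2, a late suprabasal keratin, was the most abundant of the untested pair, at 0.33 to 0.83 TPM in Merkel, 1.28 to 1.76 TPM in second and 0.45 to 0.84 TPM in first basal libraries. The listed suprabasal keratinocyte markers, which include keratins of the set, gave 0 calls among 7, and summed to 7013 to 11526 TPM in Merkel, 7646 to 11140 TPM in second and 6850 to 10795 TPM in first basal libraries. Transcripts of the sorted cells and of suprabasal cells among them cannot be told apart in such bulk samples. These levels are thus those of the libraries, and not shown to be those of Merkel or basal cells alone.

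Keratins of stress responses, the outer root sheath and the companion layer lay on both sides of 0. Of the 5, 1 was called higher and 0 lower, and the median log2 fold change was 0.59. An adjusted p under 0.05 was reached by 4 of them and by 41.7% of all tested genes. Of these 4, Krt6a, Krt17 and Krt75 had higher levels in Merkel cells and Krt16 lower levels. Krt6a (ENSMUSG00000058354; chr15:101689910-101694307, minus strand), a type II keratin of the companion layer and of injured epidermis, had 117, 146 and 401 TPM in Merkel replicates 1 to 3. Second basal libraries had 60.7, 41.4 and 88.5 TPM and first basal libraries 18.9, 22.6 and 36.8 TPM. All Merkel libraries lay above all basal libraries, and replicate 3 was more than the other Merkel replicates together. The means were 221 ± 156 TPM in Merkel cells, against 44.8 ± 15.9 TPM in basal keratinocytes, a log2 fold change of 2.26 ± 0.42 (limma adjusted p = 0.0028), which was 1.72 without Merkel replicate 3.

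Krt6b, the neighbouring paralogue of Krt6a, overlapped between the groups. It had 28.1, 23.2 and 62.1 TPM in Merkel, 40.6, 42.7 and 61.5 TPM in second and 18.4, 15.7 and 19.8 TPM in first basal libraries, with a log2 fold change of 0.23 ± 0.31 (limma adjusted p = 0.60). The ratio of Krt6a to Krt6b TPM was 4.18 to 6.46 in Merkel libraries, against 0.970 to 1.86 in basal libraries. The transcripts of the pair are alike: 43.6% of the 50-base windows of Krt6a occur in Krt6b and 44.5% of those of Krt6b in Krt6a, so the division of reads between them is uncertain.

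Krt16, a type I keratin induced in stressed epidermis, went the other way. Merkel replicates had 47.7, 41.9 and 63.2 TPM, second basal libraries 95.1, 143 and 141 TPM, and first basal libraries 58.7, 94.3 and 81.4 TPM. Merkel levels lay under all second libraries and overlapped the lowest first library. The log2 fold change was -0.95 ± 0.20 (limma adjusted p = 0.0053), just short of a call. It was called without Merkel replicate 3 (-1.11) and without basal replicate 1 (-1.14). The ratio of Krt6a to Krt16 TPM was 2.46 to 6.34 in Merkel libraries, against 0.239 to 0.638 in basal libraries. Of the 50-base windows of Krt16, 37.6% occur in other transcripts, mostly those of the paralogue Gm11597 (25.2%). Krt16 is also the gene that shares most windows with the far more abundant Krt14, at 11.4% of those of Krt14. The division of reads between Krt16 and these genes is thus uncertain.

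Krt17, a type I keratin of the outer root sheath and of embryonic and stressed epidermis, was the most abundant of this group. It had 1671, 1783 and 1917 TPM in Merkel, 1638, 1527 and 1949 TPM in second and 658, 739 and 799 TPM in first basal libraries. Merkel and second libraries overlapped, and first libraries lay well under both. Against the mean of second and first libraries the log2 fold change was 0.68 ± 0.16 (limma adjusted p = 0.0075). Against second libraries alone it was 0.08 (adjusted p = 0.76) and against first libraries alone 1.29 (adjusted p = 0.00030), the Merkel libraries being shared by both. Krt75, a type II keratin of the companion layer, was low, at 4.26 ± 1.08 TPM in Merkel cells, against 2.49 ± 0.439 TPM in basal keratinocytes (log2 fold change 0.59 ± 0.18, limma adjusted p = 0.027).

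Mucosal keratins held the highest fold changes of the set. Of the 5 tested members of the mucosal and corneal group, 2 were called higher and 0 lower, with a median log2 fold change of 0.78. Krt13 (ENSMUSG00000044041; chr11:100117327-100121566, minus strand), the type I partner of the mucosal pair, had 114, 107 and 406 TPM in Merkel replicates 1 to 3. It had 1.92, 1.21 and 1.82 TPM in second and 0.56, 1.24 and 1.23 TPM in first basal libraries. The lowest Merkel library was far above the highest basal library, and replicate 3 stood above replicates 1 and 2. Krt13 averaged 209 ± 170 TPM in Merkel cells, against 1.33 ± 0.169 TPM in basal keratinocytes, 157-fold by the means, with a log2 fold change of 6.23 ± 0.43 (limma adjusted p = 1.0e-05).

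Krt4 (ENSMUSG00000059668; chr15:101918535-101924735, minus strand), the type II partner of Krt13, was also near 0 in basal libraries and high in Merkel libraries. Merkel replicates had 70.8, 92.6 and 268 TPM, second basal libraries 2.32, 3.51 and 2.71 TPM, and first basal libraries 1.44, 2.92 and 2.52 TPM. Again the groups did not overlap and Merkel replicate 3 was the highest. The means were 144 ± 108 TPM in Merkel cells, against 2.57 ± 0.669 TPM in basal keratinocytes, 56.0-fold, with a log2 fold change of 5.12 ± 0.42 (limma adjusted p = 2.8e-05). Without Merkel replicate 3 the log2 fold changes were 5.61 for Krt13 and 4.55 for Krt4. Neither shares a 50-base window with another transcript.

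Merkel replicate 3 was the highest Merkel library for 10 of the 27 tested keratins, against 53.2% of all tested genes. Krt19, a simple keratin outside the set, was also highest there, at 44.7, 42.1 and 154 TPM in Merkel replicates 1 to 3. Krt24 and Krt78, type I and type II keratins of differentiated stratified epithelia, and Krt12, the type I keratin of the cornea, were not called. Krt24 had 1.96, 8.67 and 2.14 TPM in Merkel libraries, against 1.16 to 2.37 TPM in basal libraries, and Krt78 had 6.65 to 10.98 TPM in Merkel libraries, against 4.08 to 12.7 TPM in basal libraries. Krt12 had 2.20 to 5.27 TPM in Merkel libraries, against 0.84 to 3.53 TPM in basal libraries. Krt76, a type II keratin of the oral lining, was untested and reached 0.06 TPM in Merkel replicate 3 as its highest value.

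Krt79 (ENSMUSG00000061397; chr15:101929332-101940324, minus strand), a type II keratin known from the hair follicle funnel and sebaceous duct of the mouse, was the most abundant of the 4 keratins called higher. It had 428, 705 and 500 TPM in Merkel replicates 1 to 3, 167, 225 and 148 TPM in second and 116, 157 and 86.0 TPM in first basal libraries. All Merkel libraries lay above all basal libraries, and number 2 was the highest in each kind. The means were 544 ± 144 TPM in Merkel cells, against 149.7 ± 37.7 TPM in basal keratinocytes, 3.64-fold, with a log2 fold change of 1.89 ± 0.23 (limma adjusted p = 0.00029). It was 1.58 against second and 2.19 against first libraries alone, and all alternatives lay between these values.

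Of the other keratins without a listed place, Krt42, a type I keratin of the nail unit, had between 1 and 2.05 TPM in each Merkel library, against 0.20 to 0.39 TPM in basal libraries. The groups did not overlap, but Krt42 was tested only because all 3 Merkel values reached 1 TPM. Its log2 fold change of 0.95 ± 0.17 (limma adjusted p = 0.0020) was not a call, and it was called with a pseudocount of 0.1 TPM (1.99), with median-ratio scaling (1.03), with small RNA genes left out (1.32) and without Merkel replicate 2 (1.12). Krt80, a type II keratin of many differentiating epithelia, averaged 29.4 ± 4.42 TPM in Merkel cells, against 30.6 ± 9.43 TPM in basal keratinocytes. Krt23, a type I keratin of several glandular epithelia, had 3.21, 6.44 and 4.75 TPM in Merkel libraries, against 1.19 to 4.13 TPM in basal libraries (log2 fold change 0.73, limma adjusted p = 0.051). Krt222, the most abundant of the untested keratins of this group, had 0.35 to 1.11 TPM in Merkel libraries, against 0.07 to 0.44 TPM in basal libraries.

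The sequence just upstream of a gene's start is shown for 4 members that differ in direction: Krt13 and Krt79, called higher, Krt5, called lower, and Krt10, not called. Each is the 250 bases before the start in RefSeq (GRCm38.p6), written 5′ to 3′ along the gene's own minus strand: Krt13 at chr11:100121567-100121816, Krt79 at chr15:101940325-101940574, Krt5 at chr15:101712906-101713155 and Krt10 at chr11:99389365-99389614. Capitals mark matches on either strand. The TATA box was searched as TATAAA, and a related run of the same kind as ATAAAA. The E-box, bound by basic helix-loop-helix factors, was searched as CAGCTG. The site of AP-2 factors was searched as GCCNNNGGC. A run that resembles the site of AP-1 factors, but is looser in allowing any middle base, was searched as TGANTCA.
Krt13: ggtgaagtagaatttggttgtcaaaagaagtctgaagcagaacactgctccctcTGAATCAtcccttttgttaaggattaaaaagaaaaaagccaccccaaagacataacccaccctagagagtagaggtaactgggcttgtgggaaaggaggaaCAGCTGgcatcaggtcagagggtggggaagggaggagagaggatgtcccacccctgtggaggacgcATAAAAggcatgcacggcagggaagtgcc
Krt79: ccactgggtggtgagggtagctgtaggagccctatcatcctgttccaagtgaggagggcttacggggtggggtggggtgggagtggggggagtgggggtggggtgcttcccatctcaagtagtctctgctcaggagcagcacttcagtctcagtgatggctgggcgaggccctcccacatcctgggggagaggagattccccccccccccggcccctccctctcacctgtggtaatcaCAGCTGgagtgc
Krt5: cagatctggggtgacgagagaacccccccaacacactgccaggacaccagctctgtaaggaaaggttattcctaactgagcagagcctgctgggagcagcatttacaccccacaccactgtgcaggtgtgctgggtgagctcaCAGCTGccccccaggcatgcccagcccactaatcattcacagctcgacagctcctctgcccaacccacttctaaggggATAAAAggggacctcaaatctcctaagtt
Krt10: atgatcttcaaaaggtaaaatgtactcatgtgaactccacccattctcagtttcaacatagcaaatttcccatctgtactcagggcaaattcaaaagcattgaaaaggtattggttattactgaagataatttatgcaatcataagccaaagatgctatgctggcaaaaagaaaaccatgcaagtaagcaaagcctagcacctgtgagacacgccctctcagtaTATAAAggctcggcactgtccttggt

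Krt13 holds ATAAAA 29 bases, CAGCTG 95 bases and TGANTCA 196 bases before its start. The last reads TGAATCA, a match to the loose run and not to a strict AP-1 site. Krt5 likewise holds ATAAAA at 29 and CAGCTG at 107 bases, Krt79 holds CAGCTG at 12 bases and no match to either TATA-type run, and Krt10 holds TATAAA at 26 bases. None of the 4 windows matches GCCNNNGGC. A match is a run of letters and not a shown binding site. RefSeq gave an upstream sequence for 32 members, and for 27 of them its start lay within 20 bases of the GENCODE start. Among these 27, TATAAA occurred in 48.1% (13 windows), ATAAAA in 55.6% (15), CAGCTG in 11.1% (3: Krt13, Krt5 and Krt79), GCCNNNGGC in 7.41% (2) and TGANTCA in 3.70% (1). TATAAA and ATAAAA can overlap by all but 1 base, so these counts are not separate. Among all 32851 windows of that length the shares were 12.4%, 17.0%, 13.0%, 13.7% and 6.75% in the same order of motifs. Unlike the keratin windows, these were taken with no limit on distance to a GENCODE start or on windows per gene. The 27 keratin windows include untested genes such as Krt31. Krt4, Krt6a and Krt14 were called but had no upstream sequence near their GENCODE start, so they were not searched. Among the called keratins that were searched, the E-box occurred in 2 called higher and in 1 called lower.

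Inner root sheath keratins were low, and 0 of the 5 tested were called. At an unadjusted p under 0.05 the count was 2, a level reached by at least 41.7% of all tested genes. All 5 log2 fold changes were above 0, against 35.8% of all tested genes, and their median was 0.31. Krt25, Krt27 and Krt28 are type I and Krt71 and Krt73 type II keratins of this sheath, which surrounds the growing hair. Krt25 had 9.07 to 19.5 TPM in Merkel, 5.15 to 8.02 TPM in second and 10.1 to 16.6 TPM in first basal libraries (log2 fold change 0.28 ± 0.28, limma adjusted p = 0.45). Krt71 had 8.39 to 14.95 TPM in Merkel, 3.77 to 6.97 TPM in second and 9.86 to 17.6 TPM in first basal libraries. Krt27 had 3.80 to 7.61 TPM in Merkel, 2.31 to 3.80 TPM in second and 5.46 to 8.51 TPM in first basal libraries. In these 3, Merkel libraries overlapped first libraries, and no second library exceeded a Merkel library. Krt28 had 8.69 to 13.8 TPM in Merkel, 5.29 to 7.01 TPM in second and 6.80 to 12.0 TPM in first basal libraries (log2 fold change 0.54 ± 0.20, limma adjusted p = 0.056), and Krt73 had 13.6 to 26.2 TPM in Merkel, 5.71 to 12.7 TPM in second and 9.65 to 19.4 TPM in first basal libraries (log2 fold change 0.71 ± 0.29, limma adjusted p = 0.080). Krt26, a type I keratin of the same sheath and the most abundant of the untested pair, had at most 0.31 TPM in Merkel and 0.51 TPM in basal libraries.

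Hair shaft keratins were low in all library kinds. Only Krt35 and Krt32, type I keratins of the hair matrix and cuticle, were tested out of 15, and 0 were called, with 1 at an unadjusted p under 0.05. At least 41.7% of all tested genes reached that level. Krt35 averaged 11.6 ± 2.60 TPM in Merkel cells, against 6.73 ± 1.25 TPM in basal keratinocytes (log2 fold change 0.71 ± 0.19, limma adjusted p = 0.015). Krt32 averaged 7.82 ± 1.14 TPM in Merkel cells, against 6.26 ± 2.42 TPM in basal keratinocytes (log2 fold change 0.33, limma adjusted p = 0.28). Krt33a was the most abundant untested member, at 0.17 to 0.99 TPM in Merkel, against 0.17 to 1.88 TPM in basal libraries. Of 6 tested hair matrix and shaft markers 0 were called higher and 1, Lef1, lower. The list summed to 23.5 to 32.2 TPM in Merkel, 37.3 to 50.7 TPM in second and 29.9 to 38.3 TPM in first basal libraries. Lef1 alone averaged 11.9 TPM in Merkel cells, against 26.3 TPM in basal keratinocytes. Msx2 (log2 fold change 0.91, limma adjusted p = 0.0023), Padi3 (0.65, adjusted p = 0.0079) and Hoxc13 (0.53, adjusted p = 0.028) were higher in Merkel cells, under the size needed for a call. Padi3 was tested only through its Merkel levels. An adjusted p under 0.05 was reached by 41.7% of all tested genes.

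Summed over the 48 keratins, Merkel libraries held 14147 to 17109 TPM and basal libraries 21042 to 26640 TPM. Their share of all TPM was 1.53 ± 0.161% for Merkel cells, against 2.40 ± 0.222% for basal keratinocytes. Basal layer keratins summed to 6045 ± 425 TPM in Merkel cells, against 16201 ± 601 TPM in basal keratinocytes. As shares of the set's TPM these were 40.0 ± 6.09% in Merkel cells, against 67.4 ± 4.06% in basal keratinocytes. Suprabasal keratins summed to 6084 ± 2095 TPM in Merkel cells, against 6180 ± 1793 TPM in basal keratinocytes, so their share was 39.3 ± 9.74% in Merkel cells, against 25.5 ± 5.07% in basal keratinocytes. Stress, outer root sheath and companion keratins summed to 1868 to 2448 TPM in Merkel, 1756 to 2242 TPM in second and 757 to 939 TPM in first basal libraries, so Merkel and second libraries overlapped. The group made up 13.9 ± 2.65% in Merkel cells, against 6.01 ± 1.19% in basal keratinocytes. Within basal libraries that share was 6.63% to 10.7% in second and 3.06% to 3.96% in first libraries. Mucosal and corneal keratins made up 2.48 ± 1.94% in Merkel cells, against 0.0654 ± 0.0122% in basal keratinocytes.

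**Figure D3:**
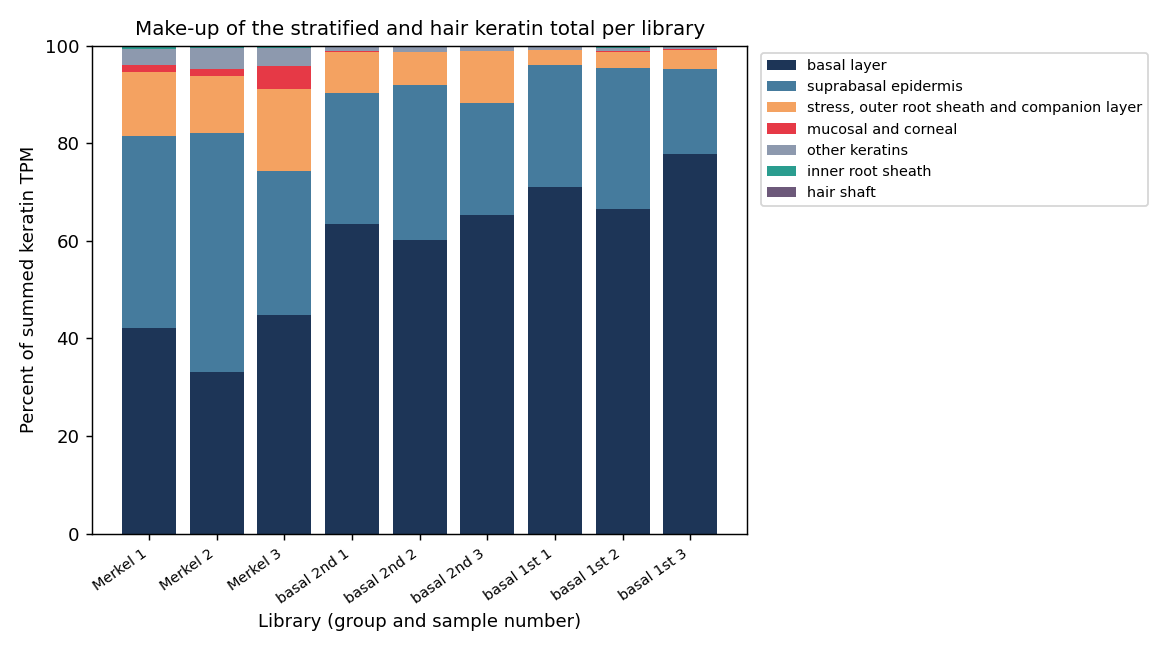
Share of the summed TPM of the 48 keratins held by each role group, in percent, as 1 stacked bar for each of the 9 libraries. The basal layer share is 33.1% to 44.7% in Merkel libraries, against 60.2% to 77.8% in basal libraries.

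Krt1, Krt5, Krt10, Krt14, Krt15 and Krt17 together held 87.4% to 93.2% of the set's TPM in Merkel libraries, against 97.5% to 98.6% in basal libraries. The ratio of type II to type I keratin TPM was 0.775 ± 0.0866 in Merkel cells, against 0.685 ± 0.0487 in basal keratinocytes, with overlapping libraries, and adding the simple keratins gave 0.799 ± 0.0818 in Merkel cells and 0.685 ± 0.0486 in basal keratinocytes. Within pairs, the ratio of Krt1 to Krt10 was 1.14 to 1.29 in Merkel libraries, against 1.10 to 1.30 in basal libraries. That of Krt4 to Krt13 was 0.619 to 0.868 in Merkel, against 1.21 to 2.90 in basal libraries, where both genes are low. Simple epithelial keratins, of which Krt20 was tested only through its Merkel levels, summed to 764 ± 172 TPM in Merkel cells, against 7.98 ± 1.51 TPM in basal keratinocytes. Their share of all keratin TPM was 4.83% for Merkel cells, against 0.0342% for basal keratinocytes.

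Second and first basal libraries, alike in every label except the library name, also differed in keratins. In this comparison 27 members were tested, with Krt2 in place of Krt42: 2 were called higher in second libraries, Krt6b and Krt17, and 1 lower, Krt71. Of all 13477 genes tested, 0.675% were called higher and 3.67% lower (4.35% in either direction). Krt17 averaged 1705 ± 219 TPM in second and 732 ± 70.8 TPM in first libraries (log2 fold change 1.22 ± 0.14, limma adjusted p = 0.0042). Krt6b averaged 48.2 ± 11.5 TPM in second and 18.0 ± 2.09 TPM in first libraries (log2 fold change 1.36 ± 0.17, limma adjusted p = 0.0057). Krt71 averaged 5.52 ± 1.62 TPM in second and 13.5 ± 3.86 TPM in first libraries (log2 fold change -1.15 ± 0.25, limma adjusted p = 0.036). Without number 1 or number 3 only 5 and 2 genes in all were called and these 3 were not among them, but their log2 fold changes with any number left out stayed at 1.17 to 1.30 for Krt17, 1.24 to 1.48 for Krt6b and -1.20 to -1.11 for Krt71.

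Krt6a, at 63.5 ± 23.7 TPM in second and 26.1 ± 9.48 TPM in first libraries, had a log2 fold change of 1.24 ± 0.32 that was not a call (limma adjusted p = 0.066) but was one with sample number as a block (adjusted p = 0.0098; 0.787% of all genes were called higher in that fit). Krt16 had a log2 fold change of 0.69 (limma adjusted p = 0.12). For 5 of the 27, Krt6a, Krt6b, Krt16, Krt17 and Krt2, all second libraries lay above all first libraries, a share of 18.5% that is near the 17.3% of all genes tested. For 5, Krt14, Krt5, Krt25, Krt27 and Krt71, all second libraries lay below, against 10.1% of all genes. Krt25 at -0.99 (limma adjusted p = 0.039) and Krt27 at -0.94 (adjusted p = 0.034) fell just short of a call, and Krt14 at -0.39 (adjusted p = 0.22) and Krt5 at -0.23 (adjusted p = 0.47) were not called. Melanocyte markers were called higher in second libraries in 5 of 5, and the immune marker Ptprc was called lower there. The part of such cells in these keratin differences was not tested.

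**Figure D4:**
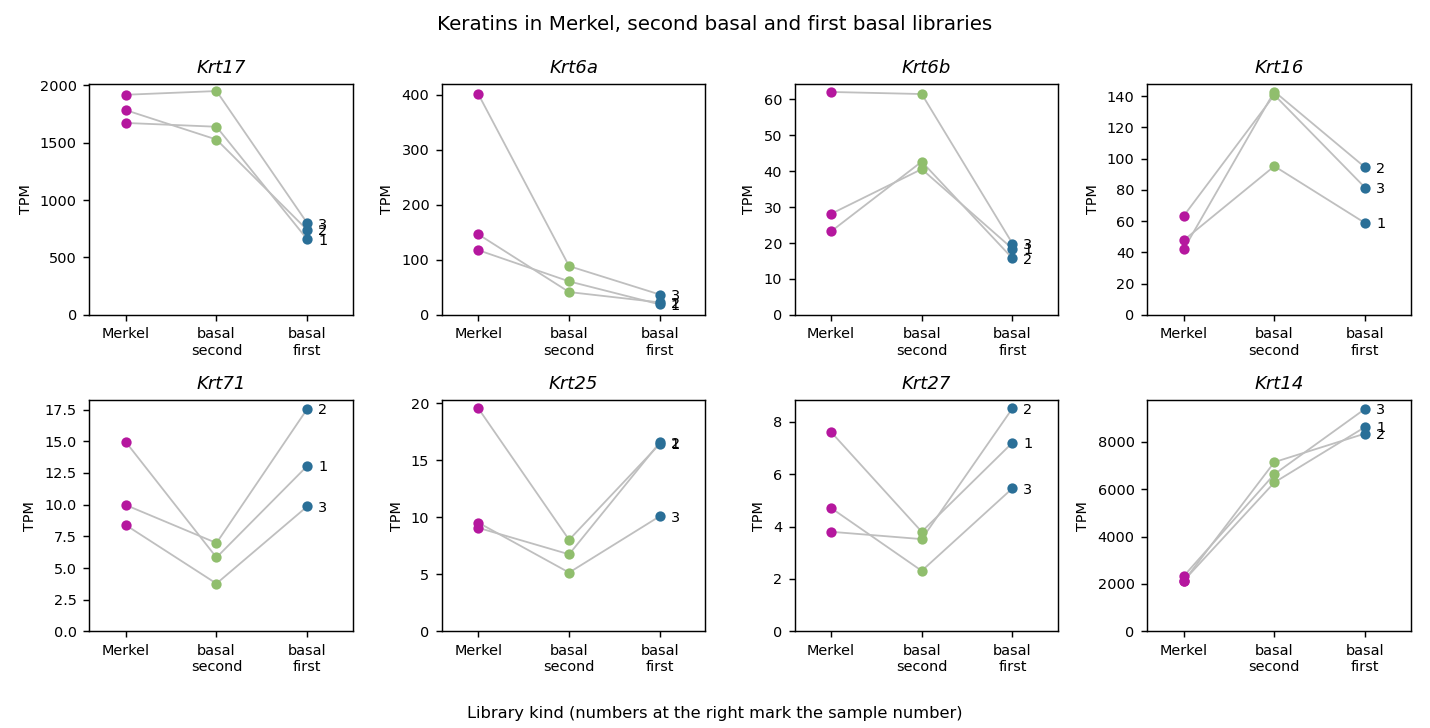
TPM of 8 keratins in Merkel, second basal and first basal libraries, with 1 point per library and grey lines joining libraries of the same sample number. Second libraries lie with Merkel libraries for Krt17 (1527 to 1949 TPM in second, 658 to 799 TPM in first), above both other kinds for Krt16, and under first libraries for Krt71, Krt25, Krt27 and Krt14.

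Which basal libraries were used therefore changed some values and not others. Krt13 had a log2 fold change of 6.03 against second and 6.44 against first libraries, and Krt6a of 1.63 against second and 2.88 against first. Krt14 had -1.61 against second and -2.00 against first libraries, and Krt5 -1.32 against second and -1.55 against first. These 4, like Krt4 and Krt79, were called against either kind. Krt16 was called lower against second libraries (-1.29, limma adjusted p = 0.00095) and not against first libraries (-0.60, adjusted p = 0.050). Krt71 stood at 0.89 against second and -0.26 against first libraries, Krt25 at 0.78 against second and -0.21 against first, and Krt27 at 0.57 against second and -0.36 against first. Of all 13822 genes, 6.46% were called higher and 5.11% lower against second libraries, and 7.46% higher and 6.68% lower against first libraries.

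Several keratins tracked the sample number across all 3 kinds of library. Krt1, Krt10, Krt12, Krt23, Krt24, Krt73, Krt77, Krt79 and Krt80 were highest at number 2 in Merkel, second and first libraries alike, which is 33.3% of the 27 tested keratins, against 4.60% of all tested genes. Krt6a, Krt6b and Krt17 were highest at number 3 in every kind (11.1%, against 3.61% of all tested genes), and Krt28 at number 1 (3.70%, against 18.3%). These shares are a description, since the keratins of a pair are not independent and the labels do not say what a number is. The part of TPM held by 7SK and 7SL RNA was also highest at number 2 in Merkel (45.6%) and first libraries (39.2%). In second libraries it was 37.0% at number 2 and 38.0% at number 3. Its bearing on these shares was not tested.

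**Figure D5:**
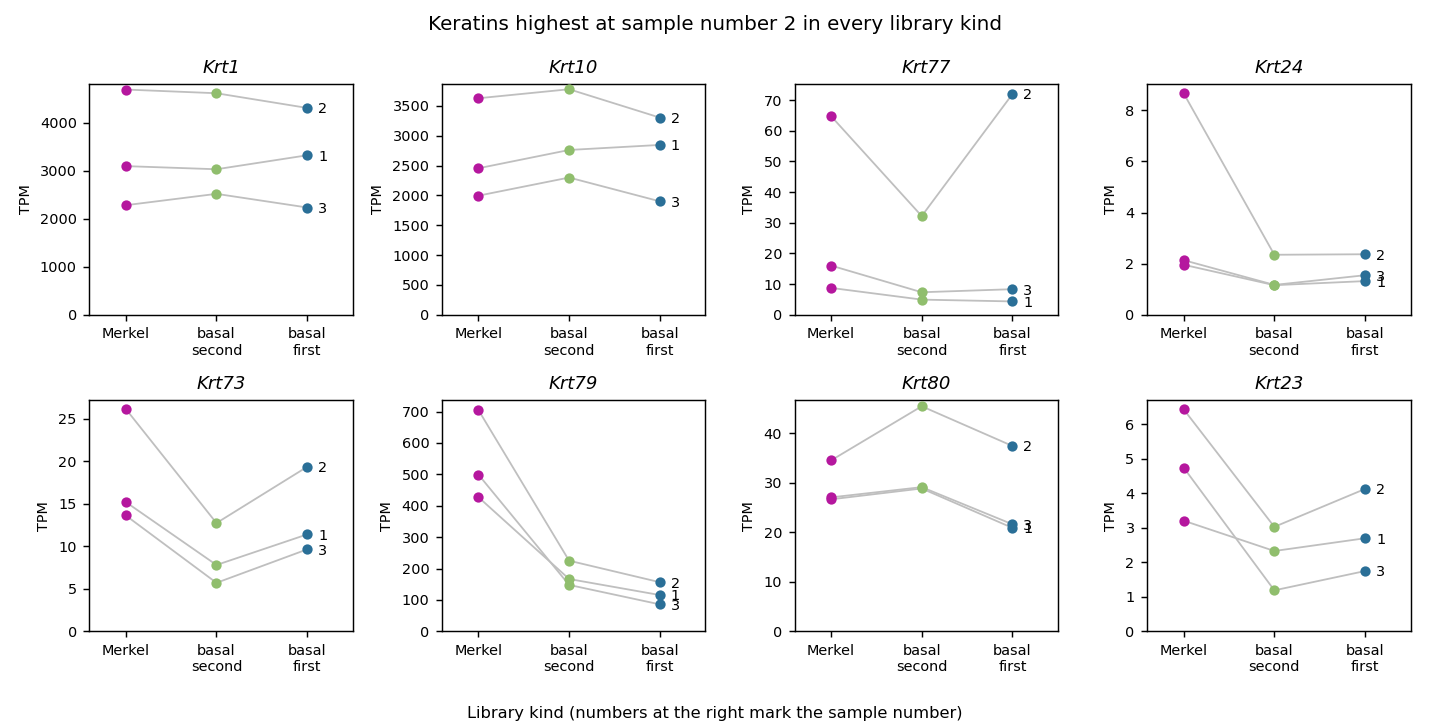
TPM of 8 of the 9 keratins that were highest at sample number 2 in every kind of library, with 1 point per library and grey lines joining libraries of the same number. The line of number 2 is on top throughout, as for Krt1 at 4695 TPM in the Merkel, 4618 TPM in the second and 4312 TPM in the first basal library.

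Of the genes that link keratin filaments to junctions, 10 were tested, 1 was called higher and 1 lower, against 6.79% and 5.27% of all tested genes. An adjusted p under 0.05 with a lower level in Merkel cells was found for 8 of the 10 and for 28.5% of all tested genes. The median log2 fold change was -0.72, against -0.15 over all genes. Pkp2, a plakophilin of desmosomes in simple epithelia and heart, averaged 3.59 ± 0.504 TPM in Merkel cells, against 0.432 ± 0.0575 TPM in basal keratinocytes (log2 fold change 1.68 ± 0.13, limma adjusted p = 2.4e-05). It was under 1 TPM in all basal libraries and was tested only through its Merkel levels. Dst, whose epithelial form BPAG1 anchors keratin at hemidesmosomes, averaged 108 ± 29.5 TPM in Merkel cells, against 286 ± 57.9 TPM in basal keratinocytes (log2 fold change -1.42 ± 0.23, limma adjusted p = 0.0013). Dsp, desmoplakin, was the most abundant linker, at 454 ± 27.5 TPM in Merkel cells, against 731 ± 49.7 TPM in basal keratinocytes (log2 fold change -0.68 ± 0.13, limma adjusted p = 0.0033, not a call).

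Filament-aggregating and cornified envelope genes gave 0 calls among 12, with 1 at an unadjusted p under 0.05 and a median log2 fold change of 0.01. The most abundant, Krtdap, a secreted product of differentiating keratinocytes, averaged 2276 ± 218 TPM in Merkel cells, against 2229 ± 117 TPM in basal keratinocytes. Among 19 regulators of keratin genes, 1 was called higher and 1 lower, near the 6.79% and 5.27% of all tested genes, with a median log2 fold change of -0.10, against -0.15 over all genes. Pitx1, a homeobox factor known from the oral epithelium, averaged 9.07 ± 5.69 TPM in Merkel cells, against 0.247 ± 0.0480 TPM in basal keratinocytes (log2 fold change 2.88 ± 0.31, limma adjusted p = 0.00015). It too was under 1 TPM in all basal libraries and was tested only through its Merkel levels. Lef1, the Wnt pathway factor of the hair matrix, averaged 11.9 ± 3.96 TPM in Merkel cells, against 26.3 ± 8.95 TPM in basal keratinocytes (log2 fold change -1.03 ± 0.31, limma adjusted p = 0.025). Trp63, the p63 factor of stratified epithelia, was the most abundant at 97.9 ± 2.43 TPM in Merkel cells, against 166 ± 14.5 TPM in basal keratinocytes (log2 fold change -0.74 ± 0.12, limma adjusted p = 0.0011, not a call). Of the 56 hair keratin-associated protein genes in the table, 2 were tested and 0 called, with both at an unadjusted p under 0.05: Krtap17-1 at a log2 fold change of 0.97 and Krtap12-1 at -0.85. An unadjusted p under 0.05 was reached by at least 41.7% of all tested genes.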

How the data were processed

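Total RNA of sorted cells was sequenced from stranded libraries as read pairs (labels' protocols). Trimmomatic, STAR and RSEM were used with mm10, per the submitters' processing notes. Their versions, the annotation and the strand setting were not given in the sources. The authors deposited TPM per gene. TPM keeps no read depth, so low values are the least certain. Of 49671 Ensembl identifiers, 49412 matched a symbol in GENCODE M21 (GRCm38, the same build as mm10) without the version suffix.

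From the TPM the authors deposited, log2(TPM + 1) values were computed, which understate the fold changes of genes near 0. On this scale the second and first basal libraries sharing a number were averaged. Genes reaching 1 TPM in 3 or more of the resulting 6 values were tested with limma 3.58.1 in R 4.3.3 (variance trend, two-sided) over the whole table with Benjamini-Hochberg adjustment. Second were compared with first basal libraries in a fit of their own. The fits were tested on simulated data. The shares of 50-base windows were counted over the longest protein-coding GENCODE M21 transcript of each member, against all transcripts of other genes. Tables and plots used Python 3.11.15, pandas 2.3.3 and matplotlib 3.10.9. The alternatives were either kind of basal library alone, all 9 libraries with sample number as a random effect, sample number as a block, a pseudocount of 0.1 TPM, no filter, a filter at 5 TPM, 3 other scalings and each replicate left out.

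Deviations from group means were correlated between libraries of the same number (0.39, 0.36 and 0.20 for Merkel and mean basal values, 0.47, 0.53 and 0.38 for second and first libraries), so the numbers of the titles were taken to match the libraries. The main fits did not pair Merkel with basal values or second with first libraries. Pairing entered only the alternatives with sample number as a block or as a random effect. Every tested member is named, with the most abundant untested member of a role group and, of each other list, its most abundant member and up to 3 called members, by smallest adjusted p. The members, roles and lists were chosen with earlier results of these data known.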

Additional observations from a re-analysis of the deposited data

Results flagged for a closer look

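Of the 27 keratins tested between second and first basal libraries, 3 were called, although the labels put both kinds in 1 cell type. Of all 13477 genes tested there, 0.675% were called higher and 3.67% lower in second libraries. Krt17 had a log2 fold change of 1.22 and Krt6b of 1.36, both higher in second libraries, and Krt71 had one of -1.15, lower in second libraries. What the kinds of library are is not given in the labels. Without number 1 or number 3 almost no gene in the table was called and these 3 were not, while their log2 fold changes kept their direction and stayed over 1 in size.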

How the results depend on the processing

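With sample number as a replicate block, no member's call changed between Merkel cells and basal keratinocytes (960 genes higher and 759 lower in all), although 18 in place of 12 keratins had an adjusted p under 0.05, and Krt6a joined the calls between second and first libraries (106 higher and 534 lower genes in all). Depth is unknown, and members under a few TPM are the least certain. Over all genes, 938 were called higher and 729 lower; a filter at 5 TPM gave 486 and 449, a pseudocount of 0.1 TPM gave 1281 lower and median-ratio scaling 454 lower. Summed keratin TPM was 29450 in Merkel cells, against 43018 in basal keratinocytes with mitochondrial and small RNA genes left out.

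Between second and first libraries, 91 genes were called higher and 495 lower. These were 147 higher with a pseudocount of 0.1 TPM, and 58 higher and 253 lower with a filter at 5 TPM. Leaving out a number gave 1 to 122 higher and 1 to 619 lower. Keratins called higher numbered 0 to 2 without a number. Keratins called lower numbered 3 with the pseudocount of 0.1 TPM, 0 with no filter, 2 with median-ratio scaling and 0 to 1 without a number.

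Signs turned only for keratins that were not called. Against first libraries alone, log2 fold changes were 0.017 for Krt1, -0.21 for Krt25, -0.36 for Krt27, -0.26 for Krt71, -0.11 for Krt78 and 0.18 for Krt80, and against second libraries alone -0.45 for Krt6b. Median-ratio scaling gave 0.18 for Krt1, 0.11 for Krt10 and 0.17 for Krt80, quantile normalization 0.059 for Krt1 and 0.17 for Krt80, and leaving out small RNA 0.086, 0.019 and 0.080 for Krt1, Krt10 and Krt80. With each replicate left out in turn, Merkel against basal values ranged from -0.28 to 0.24 for Krt1, -0.31 to 0.12 for Krt10, -0.049 to 0.46 for Krt25, -0.14 to 0.29 for Krt27, -0.19 to 0.50 for Krt6b, -0.064 to 1.65 for Krt77, -0.035 to 0.42 for Krt78, -0.14 to 0.23 for Krt80. Second against first values ranged from -0.017 to 0.14 for Krt1, -0.17 to 0.0038 for Krt12, -0.15 to 0.078 for Krt32, -0.26 to 0.14 for Krt35, and median-ratio scaling gave -0.012 for Krt1. The causes were not tested.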
